A study of Mus musculus with 4 samples.

Results

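Among the CD45+ cells of 4 EO771 mammary tumors, 2664 cells carried the transcripts of mature B cells and were left out of the expression table that the authors corrected and kept. EO771 is a mouse mammary tumor cell line, and CD45 is the surface protein shared by immune cells. The cells came from tumors of female mice on a C57BL/6 background, grown in the mammary fat pad to 1.5 cm3. The groups were Csf1rfl/fl mice and Lyve1CreCsf1rfl/fl mice, with n = 2 tumors per genotype. Both genotypes carry the floxed Csf1r gene, which encodes the receptor for the macrophage growth factor CSF1, and the second also carries Cre expressed from the Lyve1 locus, which is active in a subset of macrophages and in lymphatic endothelium. The ages of the mice were not given in the sources used here. There were 2 Chromium runs, and in each a tumor of either genotype was labelled with its own hashtag antibody before pooling, so a tumor is named here by its genotype and run. Clusters made up almost wholly of cells from the Lyve1CreCsf1rfl/fl tumor of run 2 were taken out by the authors from all samples before further analysis, and were described as lymphocytes rich in ribosomal transcripts. The authors had before that kept only hashtag singlets with few mitochondrial reads, so a cell absent from their table may have left at either step, and removed here means absent from it.

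The removed B cells were selected on raw counts of unique molecular identifiers (UMIs, 1 per captured transcript). A member was absent from the kept table, had under 5% of its UMIs in mitochondrial genes, and had 1 hashtag of its run at 3 or more times the count of the other. It held at least 2 UMIs of Cd79a and Cd79b together, at least 1 of Ms4a1 and Ighd together, at most 5 of Jchain, no UMI of Cd3d, Cd3e or Cd3g, and under 100 UMIs of S100a8 and S100a9 per 10000. Of 53361 barcodes in the raw table, 40194 passed the mitochondrial and hashtag limits and are called clean cells, and 2664 of these were members. Of all barcodes, 200 occurred in both runs, and 19 members, all of run 2, carried such a barcode. The limits were close to some cells. At the edge of the Cd79 limit, 134 removed cells met every other condition with 1 UMI and 246 members had 2. At the edge of the second limit, 94 cells had no UMI of Ms4a1 or Ighd and 198 members had 1. A further 256 cells were set aside by a single Cd3 UMI, 93 cells had a hashtag ratio from 2 to 3 and 44 members a ratio from 3 to 4.

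Follicular B cells are the resting, recirculating B cells of blood, lymph node and spleen follicles. They carry IgM and IgD of one specificity on their surface, paired with the signalling chains CD79A and CD79B, and enter follicles through the chemokine receptor CXCR5. They also carry CD23, the low affinity IgE receptor encoded by Fcer2a, and CD21, the complement receptor encoded by Cr2. CD21 is highest on marginal zone B cells, which have little CD23. After antigen and T cell help, B cells may divide in a germinal center, where their antibodies are refined, or become antibody-secreting plasma cells.

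Most of the members came from a single tumor. The removed B cells numbered 177 in the Csf1rfl/fl tumor of run 1, 93 in the Csf1rfl/fl tumor of run 2, 76 in the Lyve1CreCsf1rfl/fl tumor of run 1 and 2318 in the Lyve1CreCsf1rfl/fl tumor of run 2. The last tumor thus gave 87.0% of the members. Because the removal of clusters itself looked at the tumor of origin, these numbers are a description. The same UMI limits were therefore applied to every clean cell, kept or removed, which added only 118 kept B cells (11, 5, 8 and 94 in the same order of tumors).

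B cells of either kind were 2.01% of clean cells in the Csf1rfl/fl tumor of run 1 (95% exact binomial interval 1.74 to 2.32) and 1.05% in that of run 2 (0.853 to 1.28). They were 0.782% in the Lyve1CreCsf1rfl/fl tumor of run 1 (0.624 to 0.967) and 22.4% in that of run 2 (21.6 to 23.2). These intervals, like the others given here, cover counting error only. Only the Lyve1CreCsf1rfl/fl tumor of run 2 stood apart, and the other Lyve1CreCsf1rfl/fl tumor had the lowest share of the 4. With a limit of 10 on the hashtag ratio, the Csf1rfl/fl tumor of run 2 was lowest instead. It was then at 0.582%, against 0.894% in the Lyve1CreCsf1rfl/fl tumor of run 1. The mean share was 1.53% ± 0.683 (SD, n = 2) in Csf1rfl/fl tumors and 11.6% ± 15.3 (SD, n = 2) in Lyve1CreCsf1rfl/fl tumors. The difference of 10.05 percentage points was within the spread between tumors (two-sided exact permutation test, p = 1.0, where the smallest p that 2 against 2 tumors allows is 0.333). Within runs the genotypes went opposite ways, since the Lyve1CreCsf1rfl/fl share was 0.388 times the Csf1rfl/fl share in run 1 and 21.3 times in run 2. Without the Lyve1CreCsf1rfl/fl tumor of run 2 the difference was -0.750 points.

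**Figure D1:**
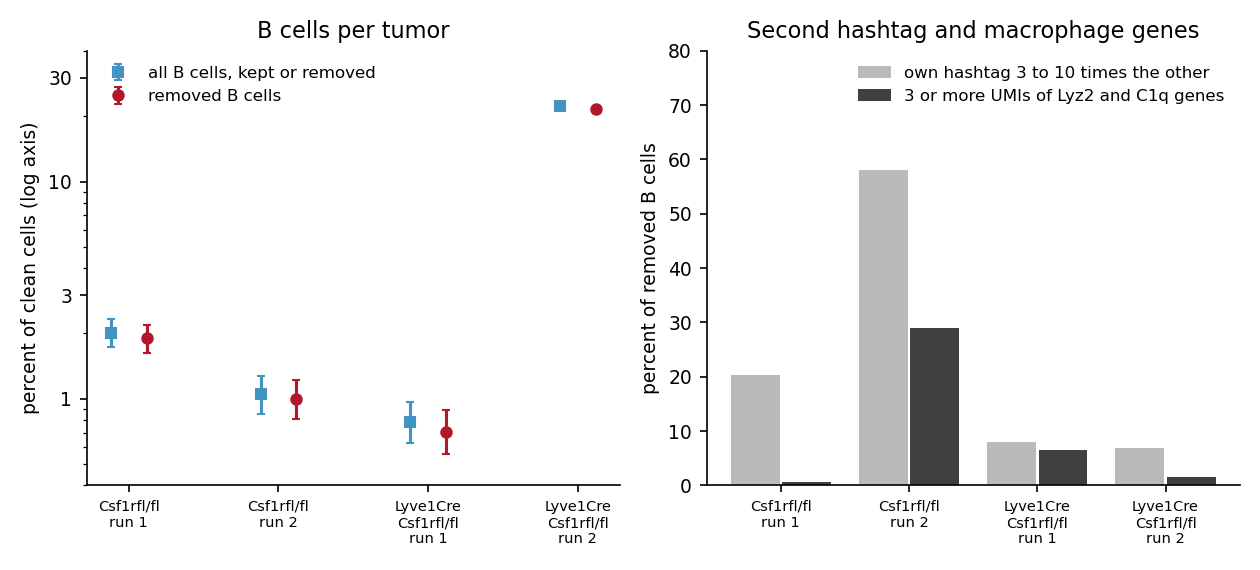
B cells in each of the 4 tumors. The left panel gives the percent of clean cells that were B cells (squares) or removed B cells (circles) on a log axis with 95% exact binomial intervals, and the right panel the percent of removed B cells with a hashtag ratio of 3 to 10 or with 3 or more UMIs of Lyz2 and C1q genes. All B cells are at 22.4% in the Lyve1CreCsf1rfl/fl tumor of run 2 and between 0.782% and 2.01% in the other 3 tumors, and both bars are tallest in the Csf1rfl/fl tumor of run 2, at 58.1% and 29.0%.

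The members differed between tumors in depth and purity, which bears on every level that follows. The median UMIs per member were 1459 and 4180 in the Csf1rfl/fl tumors of run 1 and run 2, and 1514 and 1911 in the Lyve1CreCsf1rfl/fl tumors of run 1 and run 2. In the Csf1rfl/fl tumor of run 2, 58.1% of members had a hashtag ratio between 3 and 10, against 20.3% in the other Csf1rfl/fl tumor, 7.89% in the Lyve1CreCsf1rfl/fl tumor of run 1 and 6.86% in that of run 2. The doublet caller Scrublet marked 18.3% of the members of the Csf1rfl/fl tumor of run 2, and 1.69%, 10.5% and 1.94% in the same order of the others. In the Csf1rfl/fl tumor of run 2, 29.0% of members held 3 or more UMIs of the macrophage genes Lyz2, C1qa, C1qb and C1qc, against 0.565%, 6.58% and 1.60% in the others. Within that tumor the share was 48.1% (percent of cells) among members with a hashtag ratio under 10 and 2.56% among those above it. The hashtag caller HTODemux, run on the deposited hashtag counts, called 19, 39, 7 and 2281 of the members singlets, in the order Csf1rfl/fl run 1 and run 2, then Lyve1CreCsf1rfl/fl run 1 and run 2. It called 158, 3, 68 and 18 negative and 0, 51, 1 and 19 doublets. Most members of the 3 smaller sets were thus no singlets by this caller, and the singlet filter and the removal of clusters cannot be told apart as the step at which they left. Summed levels of lists are therefore also given, where they moved much, for the 141, 39, 70 and 2159 members with a hashtag ratio of 10 or more, in the same order, which is that of all 4 values below. Levels of single genes are over all members unless the ratio is named.

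Ribosomal protein transcripts were a large part of these cells. The median share of UMIs in the 86 ribosomal protein genes was 36.9%, 23.0%, 35.5% and 30.4% in the removed B cells. In the T cells that the authors kept (7669 clean cells with 2 or more Cd3 UMIs and none of Cd79a or Cd79b), it was 27.3%, 22.2%, 28.4% and 24.7%, and in the kept B cells it was 21.1%, 22.4%, 20.5% and 22.1%. By these medians the removed B cells were above the kept T cells and the kept B cells in each tumor. In the Csf1rfl/fl tumor of run 2 they were above both by under 1 point. Over summed UMIs the order reversed in that tumor alone, with 21.65% in removed B cells, 23.72% in kept T cells and 24.26% in kept B cells. The removed B cells were not above other removed lymphocytes everywhere, because the removed T cells with naive genes in the Lyve1CreCsf1rfl/fl tumor of run 2 had a median of 36.7%.

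The 6 follicular B cell markers were present in every tumor. Levels are UMIs per 10000 UMIs, summed over the members of a tumor. Ighd, the constant region of IgD (mm10 chr12:113406604-113416324, minus strand), was at 9.30, 3.61, 7.09 and 12.2, and at 9.65, 7.90, 9.32 and 12.6 in members with the higher hashtag ratio. Cd79a (chr7:24897381-24902197, plus strand) was at 21.0, 6.46, 13.8 and 18.4. Ms4a1, which encodes the surface protein CD20 (chr19:11249675-11266241, minus strand), was at 9.90, 4.32, 8.41 and 12.1. These 3 genes took part in the selection, so their presence is no finding, and the lowest level of each was in the Csf1rfl/fl tumor of run 2, whose members most often held a second hashtag.

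Fcer2a, Cr2 and Pax5 took no part in the selection. Fcer2a (chr8:3681737-3694175, minus strand) was at 2.08 (95% exact Poisson interval 1.60 to 2.67), 1.23 (0.947 to 1.57), 1.87 (1.29 to 2.61) and 4.47 (4.29 to 4.65). In the kept T cells it was at 0 to 0.00723. Pax5, the transcription factor that holds B cell identity (chr4:44524757-44710487, minus strand), was at 3.36, 1.50, 1.76 and 4.39, against 0.00289 to 0.00796 in kept T cells. A B cell gene that the limits did not use was thus detected in members of all 4 tumors.

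Cr2 (chr1:195136811-195176716, minus strand) was at 0.772 (0.489 to 1.16), 0.499 (0.326 to 0.732), 0.605 (0.302 to 1.08) and 2.88 (2.74 to 3.02). Its level in the Lyve1CreCsf1rfl/fl tumor of run 2 was above the counting intervals of the other 3 tumors, as was that of Fcer2a. That tumor was also highest in members with the higher hashtag ratio, where the order of the other 3 was not kept and Cr2 was at 0.740, 0.902, 0.758 and 2.91 and Fcer2a at 2.05, 2.14, 2.58 and 4.55. With each cell thinned to 1000 UMIs (169, 92, 72 and 2307 cells were deep enough), a Cr2 UMI was found in 7.69%, 10.9%, 8.33% and 21.8% of cells, and a Fcer2a UMI in 19.5%, 16.3%, 23.6% and 36.1%. Unthinned, the shares were 10.7%, 21.5%, 13.2% and 39.0% for Cr2 and 27.1%, 40.9%, 30.3% and 56.0% for Fcer2a. In kept T cells thinned alike, whose median was 3855 to 5340 UMIs before thinning, neither gene was found in more than 0.2% of cells of any tumor.

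**Figure D2:**
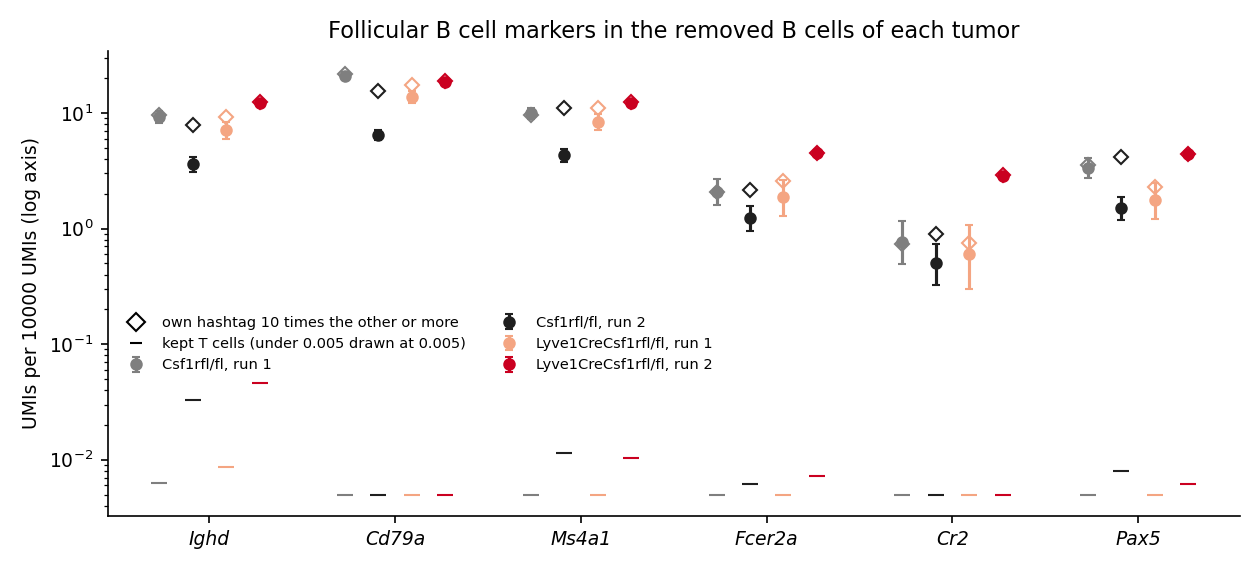
Levels of the 6 follicular B cell markers in UMIs per 10000 on a log axis, for the removed B cells of each tumor (filled circles with 95% exact Poisson intervals), for those with a hashtag ratio of 10 or more (open diamonds), and for kept T cells (dashes, with values under 0.005 drawn at 0.005). Among the removed B cells, Cr2 is at 2.88 in the Lyve1CreCsf1rfl/fl tumor of run 2 and between 0.499 and 0.772 in the other 3.

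As a further description, genes were ranked by how far their level in members exceeded that in all other clean cells of the same tumor (the geometric mean of the ratio over the 4 tumors, among 830 genes at 1 or more UMI per 10000). Among the leading genes were Ms4a1 (114 times), Ighd (96.2), Ebf1 (83.4), Fcer2a (82.3), Cd79a (82.1), Gm31243 (79.5), Fcmr (71.8), Bank1 (61.4) and Pax5 (57.5). Ebf1 encodes a transcription factor that acts with Pax5, and Fcmr the Fc receptor for IgM. The next were Cd79b (45.7), Iglc2 (44.8), Scd1 (41.3), Cd22 (23.5), Ralgps2 (22.8), Iglc1 (21.7), H2-Ob (20.9), Cd55 (20.6), Iglc3 (20.5) and Ly6d (17.0). Ms4a1, Ighd, Cd79a and Cd79b were genes of the selection, so their ratios are in part set by it. All but Scd1, a fatty acid desaturase, Ralgps2, Gm31243 and Ly6d are in the gene lists used below or are marker genes.

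The genotypes were compared gene by gene on the UMIs of the members summed per tumor. Of 5024 genes tested, 0 passed an adjusted p of 0.05 (edgeR quasi-likelihood test with Benjamini-Hochberg adjustment, 0% called), and 46 had an unadjusted p under 0.05. DESeq2 also called 0, with 14 at an unadjusted p under 0.05. The median standard error of a log2 fold change was 0.49. In simulated data of the same sizes the test found 0 of 200 genes changed by 1 on the log2 scale. It found 105 of 200 changed by 2 and 185 of 200 changed by 3. The changed genes were drawn only from the most highly expressed of the genes tested, and every gene had the same dispersion (0.14). In such genes only large changes were thus detectable with these 4 tumors, and genes at lower levels were not covered. Cr2 was at a log2 difference of 1.49 ± 0.66 (SE, Lyve1CreCsf1rfl/fl minus Csf1rfl/fl, unadjusted p = 0.0491, adjusted p = 0.9999), with -0.42 in run 1 and 2.53 in run 2. Fcer2a was at 0.91, Ighd at 0.50, Ms4a1 at 0.46, Pax5 at 0.30 and Cd79a at 0.15, and none of the 6 markers passed. The count of genes depended on single tumors: without the Csf1rfl/fl tumor of run 1 it was 194, 189 of them lower in Lyve1CreCsf1rfl/fl, and without the Csf1rfl/fl tumor of run 2 it was 6, all higher.

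The B cell receptor and its signalling genes were detected in full. Of 25 listed genes all 25 were tested and 0 passed, 19 were higher in Lyve1CreCsf1rfl/fl, and the median log2 difference was 0.15 against -0.01 over all genes tested, of which 48.7% were higher. The summed level of the list was 192, 76.0, 139 and 166 UMIs per 10000, and 192, 170, 175 and 170 in members with a hashtag ratio of 10 or more. It was 6.23 to 9.70 in kept T cells. The list includes Cd79a, Cd79b and Ighd, which chose the members, and kept T cells were required to lack Cd79a and Cd79b, so the likeness of the tumors and the distance from T cells are in part set by the selection. Ighm, the IgM heavy chain, was at 34.5, 10.2, 20.1 and 24.4, and Cd79b at 9.63, 3.25, 7.59 and 8.22. Among signalling proteins, the adaptor gene Bank1 was at 4.93, 2.11, 3.35 and 6.54, the inhibitory coreceptor gene Cd22 at 2.95, 1.19, 1.70 and 3.66, and the kinase gene Syk at 3.56, 1.88, 2.47 and 2.68.

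IgM and IgD were found together in most members. Both Ighm and Ighd were detected in 75.1%, 76.3%, 68.4% and 88.0% of members, at median depths of 1459, 4180, 1514 and 1911 UMIs. The ratio of Ighm to Ighd UMIs was 3.71, 2.83, 2.83 and 2.0, and was 29.8 to 103 in kept T cells, which held 9 to 45 Ighd UMIs and 927 to 1458 of Ighm. An Ighm UMI was found in 22.9% to 40.1% of kept T cells, at median depths of 3855 to 5340 UMIs, and in 97.2%, 94.6%, 92.1% and 97.6% of members. The ratio was lowest in the Lyve1CreCsf1rfl/fl tumor of run 2. Ighd was a condition of selection, in part, and Ighm was not. Heavy chains of switched classes (IgG, IgA or IgE) together had 3 or more UMIs and outnumbered IgM and IgD in 0, 2, 0 and 19 cells, which was 0%, 2.15%, 0% and 0.820% of the members.

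The light chains divided the members further. A cell was called kappa or lambda where it held 3 or more light chain UMIs with at least 80% of 1 kind. In the Lyve1CreCsf1rfl/fl tumor of run 2 there were 747 kappa, 134 lambda and 1421 mixed cells. The lambda share of the kappa and lambda cells was 16.7%, 15.6%, 13.5% and 15.2%, and the interval in the last tumor was 12.9% to 17.8%. The 4 shares lay within each other's intervals. Mixed cells were 55.7%, 50.5%, 50.7% and 61.7% of cells with enough light chain UMIs. Of the kept T cells, 98 of 2423, 112 of 1703, 57 of 1975 and 64 of 1568 held 3 or more light chain UMIs. The source of the second light chain in mixed cells was not tested, and a mixed call was not read as expression of both. Lambda cells of the last tumor held Iglc2 at 34.5 and Igkc at 3.54 UMIs per 10000, and kappa cells held Igkc at 54.9 and Iglc2 at 3.65.

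The B lineage transcription factors were detected as a set. All 19 were tested, 0 passed, 14 were higher in Lyve1CreCsf1rfl/fl and the median log2 difference was 0.12. Their summed level was 77.2, 40.9, 57.5 and 78.9, and 76.2, 74.6, 71.2 and 80.4 at the higher hashtag ratio, against 12.8 to 17.3 in kept T cells. Ebf1 was at 19.7, 5.03, 13.8 and 13.3, Mef2c at 9.77, 4.59, 7.81 and 13.5, and Foxp1, a factor of resting B cells, at 6.41, 3.79, 5.44 and 7.36. Bach2, which restrains plasma cell differentiation, was at 1.88, 1.04, 1.26 and 1.94. Pou2af1, the B cell coactivator that works with octamer-binding factors, was at 2.75, 0.884, 1.81 and 1.56.

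Genes of follicular homing and recirculation were also detected. Of 15 listed genes, all were tested, 0 passed, 8 were higher in Lyve1CreCsf1rfl/fl and the median log2 difference was 0.02. The summed level was 47.1, 24.1, 33.3 and 51.8, and 47.3, 39.9, 42.6 and 53.0 at the higher hashtag ratio, against 6.97 to 11.9 in kept T cells. The list includes Ighd, a gene of the selection, which alone was at 9.30, 3.61, 7.09 and 12.2 in members. The distance of this list from T cells is thus in part set by the selection. Ccr7, a chemokine receptor for T cell zones, was at 3.59, 2.86, 2.64 and 2.80. Cxcr5 was at 0.940, 0.307, 0.330 and 0.699. S1pr1, the receptor by which lymphocytes leave lymphoid organs, was at 2.45, 0.749, 0.934 and 2.50. Klf2, the factor that maintains S1pr1 in resting lymphocytes, was at 6.88, 2.90, 5.39 and 6.86, against 0.929 to 1.84 in kept T cells. Tnfrsf13c, which encodes the receptor for the B cell survival factor BAFF, was at 1.11, 0.711, 1.48 and 2.42.

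The list of quiescence and naive lymphocyte genes gave 13 of 16 tested, 0 passed and 8 higher, with a median log2 difference of 0.06. Its summed level was 53.1, 42, 42.3 and 63.0 in members, 53.7, 62.5, 49.4 and 63.9 at the higher hashtag ratio and 19.3, 29.2, 22.4 and 35.3 in kept T cells. Btg1, an antiproliferative gene, was at 20.2, 19.9, 16.4 and 30.6. The 16 listed cell cycle genes were low, with a summed level of 6.55, 16.3, 7.97 and 13.6 in members and 6.57, 5.87, 6.59 and 13.9 at the higher hashtag ratio, against 38.1 to 47.9 in kept T cells, and of the 10 tested 0 passed.

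Antigen presentation genes were high in all tumors. All 12 listed MHC class II genes were tested, 0 passed, 9 were higher in Lyve1CreCsf1rfl/fl and the median log2 difference was 0.16. The summed level was 172, 137, 166 and 183, against 29.4 to 41.0 in kept T cells. Cd74, the invariant chain, was at 80.6, 53.7, 75.1 and 82.3, and H2-Aa at 27.5, 23.0, 26.1 and 34.9. H2-Ob, a modulator of peptide loading found in B cells, was at 4.10, 1.88, 3.24 and 4.78.

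**Figure D3:**
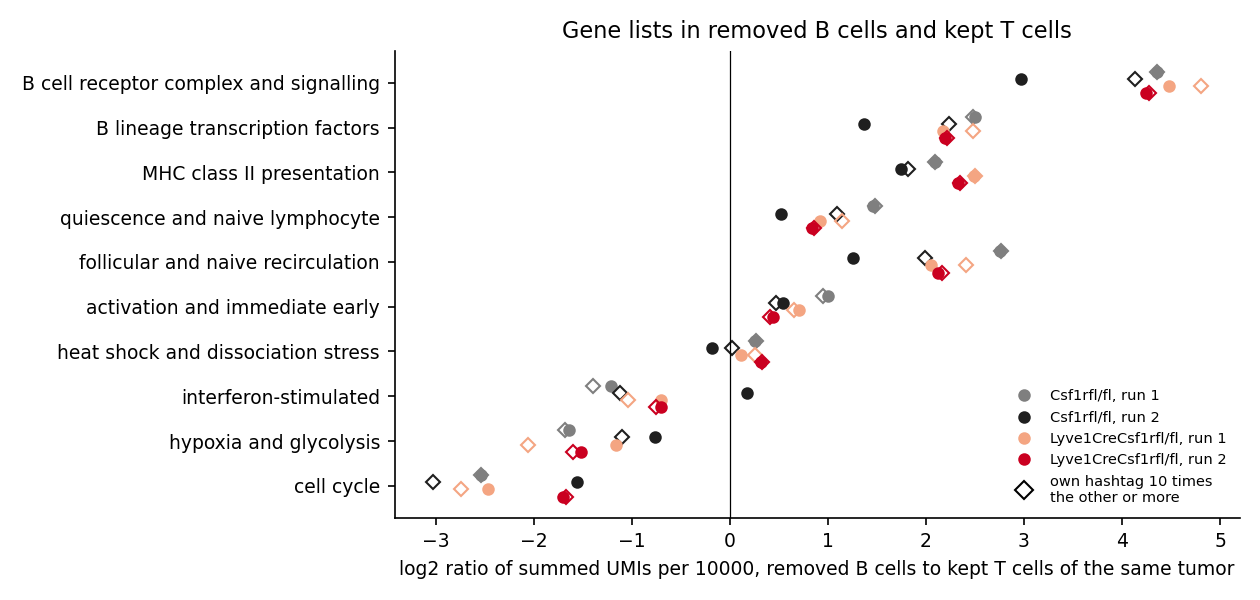
Summed level of 10 gene lists in the removed B cells relative to the kept T cells of the same tumor, as a log2 ratio, where 0 means equal levels. Filled circles are all members of a tumor and open diamonds those with a hashtag ratio of 10 or more. The B cell receptor list lies farthest to the right, in part because the selection used 3 of its genes, and the interferon-stimulated, hypoxia and cell cycle lists lie to the left of 0, apart from the interferon-stimulated list over all members of the Csf1rfl/fl tumor of run 2 (114 in members and 101 in kept T cells).

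Interferon-stimulated and glycolysis genes were at lower levels in members with the higher hashtag ratio than in the kept T cells of each tumor, which is a description, since both sets of cells were selected on their genes. The interferon-stimulated genes had a summed level of 58.3, 114, 66.7 and 59.7 in the members, 51.2, 46.4, 52.7 and 57.3 at the higher hashtag ratio, and 135, 101, 108 and 97.0 in kept T cells. Only Mx1 of the 20 listed genes was not in the table. Of the 19 tested 0 passed, 1 was higher in Lyve1CreCsf1rfl/fl and the median log2 difference was -0.65. Isg15 stood at 2.12, 15.1, 4.62 and 2.21, and at 0.616, 1.80, 1.59 and 1.53 at the higher hashtag ratio, so the high value of the Csf1rfl/fl tumor of run 2 was in members with much of a second hashtag. The hypoxia and glycolysis genes had a summed level of 12.3, 24.0, 19.4 and 13.4 in members, 12, 18.9, 10.4 and 12.7 at the higher hashtag ratio, and 38.6 to 43.4 in kept T cells, with 13 of 15 tested, 0 passed, 5 higher and a median log2 difference of -0.25. Ldha, lactate dehydrogenase, was at 0.873, 2.57, 2.86 and 1.54 in members and at 5.23 to 6.20 in kept T cells.

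Immediate early and heat shock genes can rise in cells during tissue dissociation as well as after stimulation. The immediate early list had a summed level of 80.5, 62.0, 60.4 and 64.9 in members and 37.1 to 47.9 in kept T cells, with 21 of 22 genes tested, 0 passed, 5 higher and a median log2 difference of -0.19. The heat shock list had a summed level of 51.8, 51.0, 58.2 and 75.2 in members and 43.3, 58.0, 53.7 and 60.4 in kept T cells, with 10 of 10 tested, 0 passed, 9 higher and a median log2 difference of 0.41. Hspa1b, a stress-induced chaperone, was at 8.49, 4.63, 7.04 and 12.8, and at 2.42 to 4.51 in kept T cells. Within the Lyve1CreCsf1rfl/fl tumor of run 2, 605 members had no UMI of Hspa1a or Hspa1b and 923 had 5 or more, a split made after the values were seen. Members with none held Ccr7 at 5.51, the activation marker gene Cd83 at 5.24, Klf2 at 4.56, Jun at 3.94, Junb at 11.5, Egr3 at 1.78 and Fos at 3.40. Members with 5 or more held Ccr7 at 1.73, Cd83 at 1.95, Klf2 at 8.45, Jun at 11.2, Junb at 6.52, Egr3 at 1.01 and Fos at 5.18. Immediate early genes thus went both ways, with Jun and Fos higher and Junb and Egr3 lower in the cells with much heat shock RNA. In these cells Klf2 was higher and Ccr7 and Cd83 were lower. Genes of other cell types also differed, with Lyz2 at 0.845 in members with none and 2.83 in those with 5 or more, and Gzma at 0.244 and 1.28. Scrublet marked 6 of the 605 and 30 of the 923. The parts of dissociation and of RNA from other cells in this split were not tested.

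Genes that mark other B cell states had summed levels that were not all below those of kept T cells. In kept T cells the marginal zone list summed to 2.535 to 3.16, below members, and the plasma cell list to 9.25 to 10.7, near members. The germinal center list summed to 1.27 to 2.10 there, the B-1 list to 25.9 to 31.1 and the memory list to 4.74 to 6.23. The germinal center list summed to 0.772, 3.15, 2.14 and 1.45 (3 of 11 genes tested, 0 passed, 1 higher, median log2 difference -0.38). The plasma cell list summed to 10.2, 8.63, 10.2 and 8.22 (7 of 14 tested, 0 passed, 3 higher, median -0.20), and Tnfrsf17 had no UMI in any tumor. The selection limited Jchain, which was at 0, 0.0961, 0 and 0.174. The marginal zone list summed to 6.38, 5.88, 5.55 and 7.91 (7 of 14 tested, 0 passed, 4 higher, median 0.35) and includes Cr2, while Cd1d1, another gene of marginal zone cells, was at 0.134, 0.0961, 0.110 and 0.0899. The B-1 list summed to 3.09, 13.2, 10.8 and 2.61, and to 2.92, 5.98, 5.30 and 2.08 at the higher hashtag ratio (5 of 10 tested, 0 passed, 2 higher, median -0.18), and Cd5 in it had 1, 1, 1 and 23 UMIs. The memory list summed to 2.75, 8.51, 5.0 and 3.62, and to 2.59, 5.64, 3.71 and 3.44 (4 of 10 tested, 0 passed, 2 higher, median -0.12). The precursor and transitional list summed to 5.57, 3.98, 6.16 and 4.65, against 2.32 to 2.98 in kept T cells. In this list, Rag1, Rag2, Igll1 and Dntt had no UMI in any tumor, and Vpreb3, which mature B cells also express, was at 3.22, 0.692, 3.02 and 1.35 (3 of 12 tested, 0 passed, 2 higher, median 0.07). Cd24a of the list was at 1.98, 0.997, 1.73 and 2.77 in the members with under 3 UMIs of Mki67, Top2a and Pclaf.

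Fcer2a and Cr2 divided the members of the Lyve1CreCsf1rfl/fl tumor of run 2, which alone had enough cells for a split, again made after the values were seen and given without a test. There were 340 cells with 2 or more Fcer2a UMIs and no Cr2, 137 with 2 or more Cr2 UMIs and no Fcer2a, 118 with 2 or more of each, and 659 with neither. Members with exactly 1 UMI of either gene were in none of these sets. The Fcer2a cells held Ighd at 13.9, Ighm at 25.1, Cd55 at 5.58, Ccr7 at 2.96 and Dtx1, a gene of the Notch pathway used in marginal zone B cells, at 0.315. The Cr2 cells held Ighd at 10.1, Ighm at 21.7, Cd55 at 2.80, Ccr7 at 1.43 and Dtx1 at 1.07. The cells with both held Ighd at 11.6, Ighm at 22.6, Cd55 at 3.07, Ccr7 at 1.65 and Dtx1 at 0.482. The cells with neither held Ighd at 11.3, Ighm at 26.1, Cd55 at 4.71, Ccr7 at 3.35 and Dtx1 at 0.539. Cd55 and Ccr7 were thus lower in both sets with Cr2 than in both sets without it, and Dtx1 was highest in the cells with Cr2 alone. Other genes of the marginal zone list did not follow Dtx1. Cd1d1 and Cd9 were highest in the cells with both, at 0.254 each, against 0.165 and 0.137 with Cr2 alone. Mzb1 was highest in the cells with neither, at 2.92, against 2.42 with Cr2 alone. The median depths were 1854, 2201, 2614 and 1814 UMIs for Fcer2a alone, Cr2 alone, both and neither, so the cells with Cr2 were deeper, and the part of depth was not tested. After thinning, cells with at least 1 UMI each of Fcer2a and Cr2, a lower limit than in the split, were 1.18%, 1.09%, 1.39% and 8.71% of the thinned members.

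A small group of the members was dividing. Cells with 3 or more UMIs of the proliferation genes Mki67, Top2a and Pclaf together numbered 0, 4, 1 and 29, which was 0%, 4.3%, 1.32% and 1.25% of the members, so the share was highest in the Csf1rfl/fl tumor of run 2. With a hashtag ratio of 10 or more they numbered 0, 0, 0 and 27. The 4 cells of the Csf1rfl/fl tumor of run 2 held Gzma at 56.5 and Nkg7 at 8.13, and Scrublet marked the 1 cell of the Lyve1CreCsf1rfl/fl tumor of run 1. In the Lyve1CreCsf1rfl/fl tumor of run 2 these 29 cells had a median of 11418 UMIs, against 1904 in the other 2289 members, and Scrublet marked 3 of them. Mef2b, which encodes a transcription factor of the germinal center program, had 29 UMIs in 14 of the 29 cells, which is 0.771 per 10000 (0.516 to 1.11), and 21 UMIs in 16 of the 2289 others, which is 0.0414 (0.0256 to 0.0632). In 393 dividing kept T cells of the tumor, with a median of 8683 UMIs, it was at 0, with an upper limit of 0.00931 per 10000. In the 80 other members with over 5000 UMIs, whose median was 6518, Mef2b was at 0.0167 (0.000422 to 0.0928). Mef2b was thus detected in dividing B cells, and its level there was above the counting intervals of dividing T cells and of other deep members. Among 9 dividing kept B cells with a median of 14514 UMIs it was at 0, with an upper limit of 0.208 per 10000.

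Most other genes of the germinal center list were higher in the same cells. Gcsam had 24 UMIs in the 29 cells and 6 in the others, Mybl1 33 and 23, Nuggc 16 and 6, Rgs13 10 and 3, S1pr2 15 and 15, and Neil1 24 and 83. Per 10000 UMIs Gcsam was at 0.638 (0.409 to 0.949) in the 29, at 0.0118 (0.00434 to 0.0257) in the others and at 0.0333 (0.00403 to 0.120) in the 80 deep ones. The levels of Mybl1 (0.0333, 0.00403 to 0.120), Nuggc (0.0167, 0.000422 to 0.0928), S1pr2 (0.0833, 0.0270 to 0.194) and Neil1 (0.0999, 0.0367 to 0.217) in the 80 deep members were below the intervals in the 29 cells, and Rgs13 had no UMI there (upper limit 0.0614). The intervals overlapped for Fas, at 0.346 (0.184 to 0.591) in the 29 and 0.167 (0.0799 to 0.306) in the 80, and for Basp1, at 1.81 (1.40 to 2.29) and 1.13 (0.879 to 1.44), which was at 1.73 (1.45 to 2.05) in the 94 kept B cells. Bcl6, the germinal center repressor, was at 0.425 (0.243 to 0.691) in the 29 cells and at a close 0.311 (0.265 to 0.364) in all the others. In the 80 deep members it was at 0.266 (0.152 to 0.433), an interval that overlapped that of the 29. Genes of resting follicular cells were lower in the 29 cells than in the others, which were much shallower. Ighd was at 1.41 (1.06 to 1.84) and 13.0 (12.7 to 13.3), Fcer2a at 1.25 (0.918 to 1.66) and 4.71 (4.52 to 4.90), and S1pr1 at 0.346 (0.184 to 0.591) and 2.66 (2.52 to 2.81). In the 80 deep members that were not dividing, Ighd was at 6.31 (5.69 to 6.98), Fcer2a at 1.80 (1.47 to 2.17) and S1pr1 at 1.18 (0.923 to 1.49), so the interval of Fcer2a overlapped that of the dividing cells and those of Ighd and S1pr1 did not. Ighd was also a gene of the selection. Genes of other cell types also differed, since Gzma, a granzyme of NK and T cells, was at 3.27 in the 29 cells and 0.471 in the others, and Nkg7, another gene of these cells, at 0.824 and 0.234. Of the 29 cells 3 held 3 or more UMIs of Lyz2, C1qa, Nkg7 and Gzma together, and the part of such RNA in the contrast was not tested.

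The switched cells overlapped with the dividing ones. Of the 19 members of this tumor in which a switched heavy chain prevailed, 11 were among the 29 dividing cells and 8 were not. Of the dividing cells 14 had no Ighd UMI, as did 229 of the 2289 others, although the dividing cells were much deeper. The cells were chosen after the values were seen, so the contrast is a description of 29 cells of 1 tumor and is not a comparison of genotypes.

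**Figure D4:**
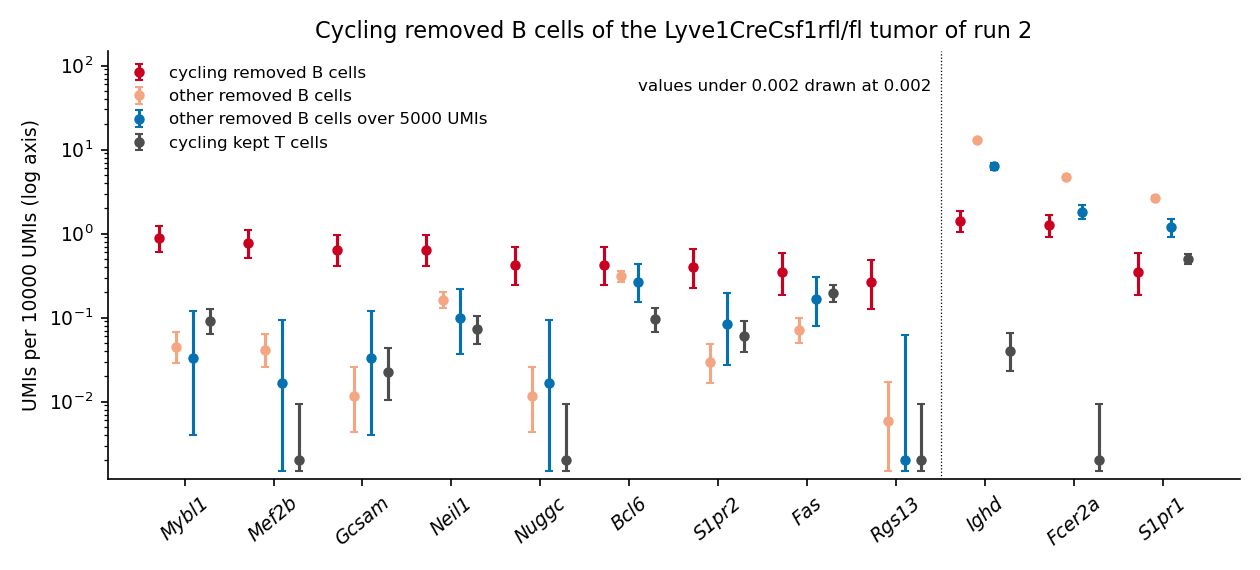
Levels of germinal center list genes (left of the dotted line) and genes of resting follicular cells (right of it) in UMIs per 10000 on a log axis in the Lyve1CreCsf1rfl/fl tumor of run 2, for 29 dividing removed B cells, the other 2289 removed B cells, the 80 of these with over 5000 UMIs and 393 dividing kept T cells, with 95% exact Poisson intervals (values under 0.002 are drawn at 0.002, and the lower ends of intervals stop near the foot of the axis). Mef2b is at 0.771 in the dividing B cells and at 0.0414 in the others, and Ighd is at 1.41 and 13.0, and at 6.31 in the deep ones.

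The members of the Lyve1CreCsf1rfl/fl tumor of run 2 were also compared with each other gene by gene. The variance of counts over cells, relative to counting noise, had a median of 1.11 over 3081 genes at 0.1 or more UMI per cell. It was largest for the chemokine gene Cxcl2 at 55.1, which was detected in 28.4% of members and reached 530 UMIs in 1 cell. Malat1 followed at 22.4, Gm42418 at 22.1, Ccl5 at 18.9, Cst3 at 11.0, Gzma at 10.4, Ccl4 at 7.57, Gzmb at 7.18, S100a6 at 6.68, Lyz2 at 6.11, Hspa1b at 5.81, Ifitm3 at 5.51, S100a4 at 5.28, Il1b at 5.20 and Iglc1 at 5.07. Ccl5, Gzma, Ccl4 and Gzmb are genes of natural killer and T cells, and Lyz2, Cst3 and Il1b are genes of myeloid cells. Ccl5 did not go with the first kind alone. The 17 members with 3 or more Ccl5 UMIs held Cst3 at 30.5 and Gzma at 15.4, and Scrublet marked 12 of them. In the 47 members with 3 or more Cxcl2 UMIs, Cst3 was at 21.5, Il1b at 10.8 and Lyz2 at 10.2, and Scrublet marked 14 of the 47.

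Depth moved with several of these levels. In members of that tumor with under 1500 UMIs (475 cells) Ighd was at 16.4, Mki67 at 0.0801 and Lyz2 at 0.705. In members with over 5000 UMIs (105 cells) Ighd was at 4.40, Mki67 at 3.14 and Lyz2 at 5.75. The deepest members thus held more proliferation and myeloid RNA than the shallowest. Genes that took no part in the selection were also lower in the deepest members. From the shallowest to the deepest, Fcer2a went from 6.46 to 1.55, Pax5 from 5.10 to 2.22, and Ighm from 32.0 to 14.5. The selection asked for a fixed number of UMIs, and its part in the fall of Ighd with depth was not tested.

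Transcripts of other cell types were measured over whole lists. The T cell list, whose Cd3 genes were at 0 by selection, summed to 0.302, 1.69, 1.54 and 0.922, and to 0.329, 0.790, 0.606 and 0.830 at the higher hashtag ratio. The macrophage and monocyte list summed to 9.23, 40.6, 23.4 and 5.98, and to 6.57, 11.8, 7.50 and 4.34 at the higher hashtag ratio, and the NK cell list to 0.269, 21.8, 6.16 and 1.81, and to 0.246, 0.338, 0.227 and 0.991. The neutrophil list summed to 6.92, 7.86, 10.5 and 6.21, and to 6.82, 4.74, 12.7 and 5.64 at the higher hashtag ratio. Its genes S100a8 and S100a9 were capped by the selection, so these sums are in part set by it. The dendritic cell list summed to 1.91, 9.18, 4.23 and 2.34, and to 1.23, 1.92, 4.62 and 2.21 at the higher hashtag ratio. The tumor and stroma list summed to 1.28, 0.826, 0.770 and 1.44, and to 1.23, 1.80, 0.833 and 1.46, of which Pecam1, a gene that leukocytes also express, gave 1.21, 0.769, 0.715 and 1.40 over all members. Of the markers of a tumor or stromal cell, Krt18, Krt14 and Pdgfra had no UMI in any tumor, and Col1a1, Col1a2, Sparc, Krt8 and Dcn had 0 to 3 UMIs and Epcam 0 to 14. The erythroid and platelet list summed to 0.201, 2.80, 0 and 0.0843, and to 0.246, 15.1, 0 and 0.0806 at the higher hashtag ratio, where the high value of the Csf1rfl/fl tumor of run 2 was nearly all Pf4, a platelet chemokine gene that had 142 UMIs in 6 of its 93 members. For this list the members with the higher ratio were thus not the cleaner ones. The plasma cell marker list of 6 genes summed to 0.705, 1.52, 1.04 and 1.06. The macrophage and NK list sums were highest in the Csf1rfl/fl tumor of run 2 and were lower at the higher hashtag ratio in every tumor. Apoe did not follow this pattern. The part of such transcripts in the differences between tumors was not tested. Lyve1 had no UMI in any member, and Csf1r was at 0.134, 0.961, 0.330 and 0.0733, so the targeted gene could not be checked in these cells.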

How the data were processed

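The authors mapped the reads to mm10 with Cell Ranger 6.0.1. The deposited tables hold raw UMI counts by cell barcode and gene and raw counts of the hashtag antibodies, neither of them normalized. They also deposited a second gene table of scores (whole-number corrected counts from SCTransform, 18449 genes in 28429 kept cells), which was used only to learn which barcodes were kept. The deposited raw table held 32285 genes. Tumors were told apart by the hashtag of the run, and the share of all clean cells that were B cells was compared with a two-sided exact permutation test.

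UMIs of the removed B cells were summed per tumor (297870, 520511, 181919 and 5453151 in the order used in the text) and tested with edgeR 4.0.16 (quasi-likelihood, TMM, filterByExpr) in R 4.3.3, with a Benjamini-Hochberg threshold of 0.05. DESeq2 1.42.0 was an alternative. The number of cells is not the number of replicates, and p-values measure the spread between 2 tumors per genotype. Each run shared 1 batch of both genotypes per the labels, so the run is a pair. The deviations of its tumors from their group means correlated at r = -0.378 over 3975 genes. The edgeR script was tested on simulated data. Doublets were not removed in the main values. Scrublet (scanpy 1.11.5, expected rate 0.2) was run on each run separately and marked doublets (29.8% of barcodes in run 1 and 11.0% in run 2). HTODemux of Seurat 5.3.0 (quantile 0.99) was an alternative for the hashtags. Other steps used Python 3.11.15 (scipy 1.17.1, numpy 2.4.6, pandas 2.3.3). Coordinates are from the mm10 annotation.

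The members and gene lists were chosen with earlier results of these data known. Named genes were the markers, the genes of the selection, members of each list with the highest level in the Lyve1CreCsf1rfl/fl tumor of run 2 or those that define the list, the 20 genes with the highest ratio to other cells and the 15 with the largest excess spread. S1pr1, Cxcr5, Bach2, Pou2af1, Tnfrsf13c, Syk, Cd22, H2-Ob, Ldha, Isg15, Rgs1 and the genes given for splits of the members were named after their values were seen. The deep members (over 5000 UMIs) set beside the dividing ones were also chosen after the data were seen. The stricter B cell limits were 4 or more UMIs of Cd79a and Cd79b and 2 or more of Ms4a1 and Ighd. Some genes of the lists are not reported here. No column of per-sample values was left without a sample.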

Additional observations from a re-analysis of the deposited data

Results flagged for a closer look

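The share of B cells among clean cells differed between genotypes in opposite directions in the 2 runs. In run 1 the Lyve1CreCsf1rfl/fl tumor had 0.388 times the share of the Csf1rfl/fl tumor, and in run 2 it had 21.3 times. With 1 tumor per genotype and run, the difference between the runs was not tested. In run 2 the high share belongs to the tumor that gave 87.0% of the removed B cells, so run, tumor and genotype cannot be told apart for it.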

How the results depend on the processing

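The share of B cells kept its direction under the alternatives that kept all 4 tumors (7.82 to 15.9 points with a hashtag ratio of 10, without Scrublet doublets, with stricter limits, without the Jchain limit or with kept cells plus members as the denominator). With a hashtag ratio of 10 the order of the 2 lowest tumors changed, and the two-sided exact permutation test gave p = 0.667. Leaving out a tumor gave -0.750 to 20.8 points, and the sign reversed without the Lyve1CreCsf1rfl/fl tumor of run 2. The tumor gave 89.6% of members with a hashtag ratio of 10, 97.2% with HTODemux singlets (19, 39, 7 and 2281 cells) and 90.1% with stricter limits. With the run as a replicate block, 0 genes were called (27 at an unadjusted p under 0.05), as without it (46), and the block changed no other call. A crossed pairing, added after the data were seen, called 3. The number of genes called was 37 with no filter on low counts, 12 with all B cells, 4 with a hashtag ratio of 10, 2 with HTODemux singlets (3 tumors, since the Lyve1CreCsf1rfl/fl tumor of run 1 had 7 such cells), 4 without cells holding Lyz2, C1q or Nkg7 (chosen after the data were seen), and 0 to 194 with 1 tumor left out, where a lone tumor is assumed to vary like the other group. The cause of these changes was not tested. With a hashtag ratio of 10, Cd79a reversed to -0.08 and Pax5 to -0.17. With 1 tumor left out, the log2 difference ranged from -0.07 to 1.54 for Ighd, -0.50 to 1.44 for Cd79a, -0.07 to 1.37 for Ms4a1, -0.03 to 2.13 for Cr2, -0.46 to 1.19 for Pax5 and 0.20 to 1.52 for Fcer2a. With 2 tumors per genotype, a log2 change of 1 was not detectable in simulated data.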

Other observations

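The 118 B cells that the authors kept had other values from those removed. In the Lyve1CreCsf1rfl/fl tumor of run 2, the 94 kept B cells had a median of 6850 UMIs and held Ighd at 2.79 UMIs per 10000 (95% exact Poisson interval 2.44 to 3.19), Fcer2a at 1.11 (0.892 to 1.37) and Rgs1, a G protein regulator of activated lymphocytes, at 4.61 (4.15 to 5.11). In the 2289 removed B cells that were not dividing, with a median of 1904 UMIs, these were at 13.0, 4.71 and 0.691, and in the 80 of them with over 5000 UMIs (median 6518) at 6.31 (5.69 to 6.98), 1.80 (1.47 to 2.17) and 1.65 (1.34 to 2.01). The B cell receptor list summed to 49.5, 60.1, 89.3 and 52.5 in the kept B cells of the 4 tumors (Csf1rfl/fl run 1 and run 2, then Lyve1CreCsf1rfl/fl run 1 and run 2), and the macrophage and monocyte list to 89.4, 41.8, 69.4 and 41.4. Scrublet marked 54.5%, 40%, 75% and 40.4% of the 11, 5, 8 and 94 kept B cells as doublets in the same order, against 1.94% of the removed B cells in the Lyve1CreCsf1rfl/fl tumor of run 2. The 2 sets were not drawn at random, so these values describe them, and the part of doublets in the difference was not tested.

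The list of B cell cytokine and regulatory genes summed to 13.6, 36.3, 29.5 and 10.8 UMIs per 10000 in the removed B cells of the 4 tumors, and to 9.65, 14.9, 11.8 and 9.66 in those with a hashtag ratio of 10 or more. Il10 had 0, 2, 1 and 5 UMIs in the 4 tumors in the same order. Tnf was at 0.0671, 0.961, 1.59 and 0.187 UMIs per 10000, and at 0.0411, 0.113, 0.0758 and 0.167 in members with a hashtag ratio of 10 or more. Ltb, which encodes lymphotoxin beta, was at 4.50, 2.34, 2.03 and 4.13, and Tgfb1 at 1.11, 1.81, 1.48 and 1.72. Of the 17 listed cytokine and regulatory genes 8 were tested and 0 passed (edgeR quasi-likelihood test, 4 higher in Lyve1CreCsf1rfl/fl).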
